A study of Mus musculus with 8 samples.

Results

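Stimulated CD4+ T cells held under dorsomorphin were compared with resting cells that received neither the stimulus nor the inhibitor. The comparison used 4 of the 8 arrays of the series, 2 of the group called stimulated_dorsomorphin and 2 of the group called control, chosen by their treatment labels. All cells were primary CD4+ T cells from BALB/c mice. The stimulated cells with dorsomorphin had been on plate-bound antibody to CD3 with soluble antibody to CD28 for 1 h and then had 4 µM dorsomorphin for 6 h. The control cells had no antibodies and had DMSO, the solvent, over the same 6 h. The other 4 arrays, 2 of cells with dorsomorphin alone and 2 of stimulated cells with DMSO, served as reference points and lent their spread to the fit. The comparison crosses the design diagonally, so 2 things differ at once, and the effects of stimulus and inhibitor cannot be told apart within it. Nothing in the labels tells whether the 2 replicates of a group came from different mice or cultures. The p-values therefore reflect the spread between arrays alone, and that spread may be technical.

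T cell activation starts at the T cell receptor, whose CD3 and zeta chains pass the signal through kinases to calcium and calcineurin, RAS and NF-kB. Within hours, NFAT, AP-1 and EGR factors switch on cytokine genes such as Il2, and MYC drives growth, while genes that keep naive T cells at rest are switched off. Dorsomorphin is a small molecule that blocks type I receptors of the bone morphogenetic protein (BMP) family, which signal through SMAD proteins to the Id genes, and it also inhibits AMPK, the energy-sensing kinase.

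Each array gave 1 deposited signal per probe set, and values are given below as log2 of that signal, so a difference of 1 is 2-fold. Precision is limited throughout by having 2 arrays a group. Each of 18193 genes was represented by its brightest probe set, and 13983 genes were tested, those above a working floor of log2 5.22 (the 40th percentile of all values) on at least 2 arrays. Levels of different genes are not comparable on this scale. Median signals of the 4 arrays ran from 58.7 to 74.5. Across the tested genes Pearson's r was 0.952 between the control arrays, 0.937 between the stimulated arrays with dorsomorphin, and 0.893 to 0.909 between the groups, genes not being independent replicates. On the stimulated pair with dorsomorphin 2743 genes (19.6%) differed by more than 2-fold between replicates, against 1868 (13.4%) on the control pair. The 3' minus 5' signal of the Dap spike-in RNA was 1.37 and 1.21 log2 units on the replicates numbered 1 of the 2 groups and 2.75 and 2.69 on those numbered 2. A number holds 1 array per group, so no test within a number can be made.

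The T cell label was checked against Cd3d and Cd4, which encode a chain of the CD3 complex and the coreceptor that defines these cells. Cd3d had log2 signals of 14.40 and 14.45 in control cells and of 13.47 and 13.34 in stimulated cells with dorsomorphin. Cd4 had 11.02 and 10.78 in control cells and 9.23 and 8.34 in stimulated cells with dorsomorphin. Both transcripts lay far above the floor on all 4 arrays and were lower in the treated pair with no overlap, by -1.02 ± 0.23 (SE) and -2.11 ± 0.61 log2 units, and neither difference passed the test (limma adjusted p = 0.0554 and 0.0948). These 2 genes, and the others named below without a place in the naming rule, were chosen after their values were seen.

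Stimulated cells with dorsomorphin differed from resting cells mainly in genes that were lower. Of 13983 genes, 128 (0.915%) were higher and 882 (6.31%) were lower than in control cells, at a limma p adjusted by the Benjamini-Hochberg method under 0.05. The lower side was also the deeper one. The median difference was -1.94 log2 units over the 882 lower genes and 1.71 over the 128 higher ones, and 408 fell by more than 4-fold against 44 that rose by as much. The median over all tested genes was -0.14. For 773 of the lower and 83 of the higher genes, each group's mean exceeded the floor. For 88 lower genes both treated arrays were below the floor, and for 40 higher genes both control arrays were, so that only a lower bound of the change is known.

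These calls rest on all 8 arrays. Leaving out control replicate 1 or 2, or replicate 1 or 2 of the stimulated cells with dorsomorphin, left 0 calls each time, with lowest limma adjusted p-values of 0.103, 0.139, 0.0512 and 0.0622 and 2531, 2250, 3485 and 2651 genes at an unadjusted p under 0.05. A fit of only the 4 arrays compared also gave 0 calls, a lowest adjusted p of 0.0540 and 3820 genes at an unadjusted p under 0.05. The 2 groups did not overlap at any of the 1010, but these genes were called from the same arrays, so this is no separate support. Of all tested genes, 23.2% lay higher without overlap and 37.9% lay lower.

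**Figure D1:**
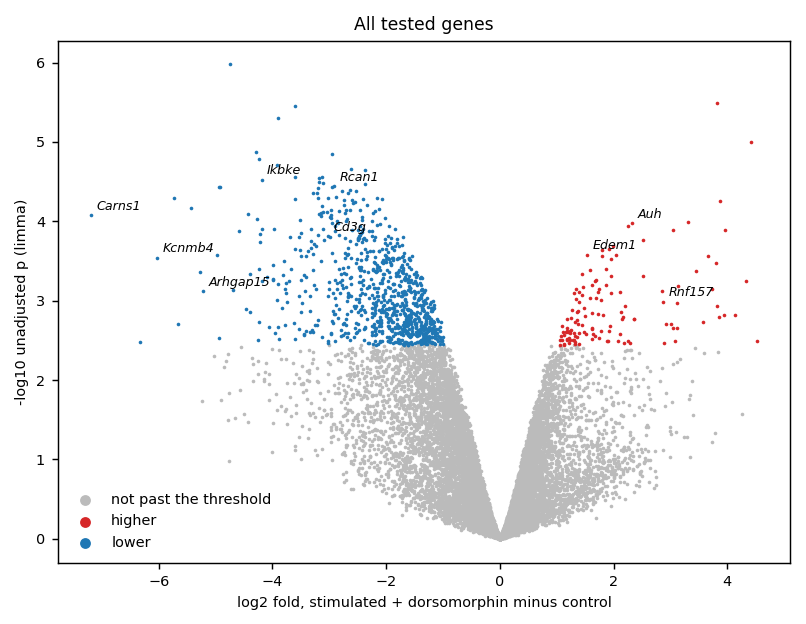
Difference of each of the 13983 tested genes between stimulated cells with dorsomorphin and control cells (x axis, log2 fold) against its unadjusted limma p (y axis, -log10), 1 point per gene. The 882 genes lower at an adjusted p under 0.05 are blue and the 128 higher are red, and the lower side reaches -7.19 (Carns1) where the higher side ends at 4.53.

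The deepest losses measured on both sides included Arhgap15, Skap1 and Ikbke. Arhgap15, a GTPase-activating protein for the cytoskeletal switch RAC, had log2 signals of 12.45 and 12.44 in control cells and of 7.89 and 6.54 in stimulated cells with dorsomorphin. Its fall was 37.4-fold (-5.23 ± 0.82 log2 units, SE, n = 2 per group, limma adjusted p = 0.0278), and its other probe set above the floor differed by -4.23. Skap1, an adaptor that links the T cell receptor to integrins, had 12.77 and 12.97 in control cells and 8.72 and 8.48 in stimulated cells with dorsomorphin. It fell 19.3-fold (-4.27 ± 0.46, limma adjusted p = 0.0189), with both treated arrays far below both control arrays. Skap1 has 2 further probe sets above the floor, which differed by -1.40 and 2.03. Ikbke, a kinase of the innate NF-kB and interferon pathways with a single probe set, had 12.79 and 12.78 in control cells and 8.40 and 8.78 in the treated ones (-4.19 ± 0.37, limma adjusted p = 0.0186).

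Arhgef18, a guanine nucleotide exchange factor gene, differed by -4.40 and Dapl1, a death-associated protein-like gene, by -4.42 log2 units, both past the test. The tetraspanin gene Tspan32 (-4.24), the phospholipid flippase gene Atp8b4 (-4.22) and the lysophospholipase gene Pnpla7 (-4.10) followed. Dido1, a chromatin reader, differed by -3.97, and Uvssa, a factor of transcription-coupled DNA repair, by -3.93. Haus4, a subunit of the augmin complex of the mitotic spindle, completed the list at -3.91. Mpeg1, which encodes perforin-2 and is typical of macrophages, is also among these 12 genes (9.15 and 9.26 against 6.25 and 4.24). Of the 12, 7 had other probe sets above the floor. All of them went the same way for Arhgap15, Arhgef18 and Uvssa, some did for Skap1 and Dido1, and none did for Tspan32 and Atp8b4.

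Other losses ended below the floor and are bounds, taken from the mean of the bright group to the floor. Carns1, which encodes carnosine synthase, had 11.33 and 11.23 in control cells and 4.24 and 3.93 in stimulated cells with dorsomorphin, at least 66.7-fold lower (limma adjusted p = 0.0189). Kcnmb4, a subunit of a calcium-activated potassium channel, was at least 13.8-fold lower (8.98 and 9.03 against 2.88 and 3.08). Cnga1, a cyclic nucleotide-gated channel gene, was at least 8.60-fold lower (8.37 and 8.28 against 3.02 and 2.16). Eif2ak4, which encodes the amino acid sensor kinase GCN2, was at least 8.10-fold lower (8.30 and 8.18 against 4.99 and 2.54). The other probe set of Eif2ak4 differed by -0.18. Ccdc167 was at least 8.68-fold lower on its brightest probe set, while its other 2 differed by 0.98 and 1.26.

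The largest rises measured on both sides were smaller than these losses. Rnf157, a RING ubiquitin ligase, had log2 signals of 6.54 and 7.39 in control cells and of 9.80 and 9.89 in stimulated cells with dorsomorphin, a rise of 7.36-fold (2.88 ± 0.48, SE, n = 2 per group, limma adjusted p = 0.0308). Mir22hg, the host transcript of microRNA 22, had 9.11 and 8.84 in control cells and 11.25 and 11.22 in the treated ones, a rise of 4.78-fold (2.26 ± 0.25, limma adjusted p = 0.0189). In both genes the treated arrays nearly coincided and lay above both control arrays. Taf15, an RNA-binding protein of the FET family, had 8.78 and 9.55 in control cells and 11.30 and 11.43 in the treated ones (2.21 ± 0.38, limma adjusted p = 0.0326). Rbm14, an RNA-binding coactivator, had 11.14 and 11.68 in control cells and 13.25 and 13.46 in the treated ones (1.95 ± 0.37, limma adjusted p = 0.0403).

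The other 8 of the largest rises were Phactr2, a regulator of actin and protein phosphatase 1 (2.52), Auh, an RNA-binding mitochondrial hydratase (2.33), and the zinc finger gene Zfp52 (2.15). Eps15l1, an endocytic adaptor (2.12), Dock8, an exchange factor for CDC42 (2.08), and Cdadc1, a deaminase family gene (1.99), came next. The nuclear pore gene Nup50 and the mitochondrial magnesium channel gene Mrs2 both stood at 1.96. Many of these rises belong to single probe sets. Of the 12 genes, 11 had other probe sets above the floor, and all of those rose or lay higher only for Taf15 (0.76) and Rbm14 (1.13 to 1.77). For Phactr2, Zfp52 and Mrs2 none did (-0.20, -0.55 and -0.87). For Auh the other 4 ran from -2.49 to 2.50, and for Dock8 the other 2 differed by -3.68 and 0.20. With the mean of all its probe sets, Dock8 differed by -0.17, the opposite direction.

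Among genes below the floor in control cells, bounds on the rise were small. They were at least 3.33-fold for the interferon-inducible family gene Ifi27l2b, 2.42-fold for the melanosomal transporter gene Slc45a2 and 2.36-fold for the collagen gene Col25a1. Those of the transcription factor gene Klf14 and the mannosyltransferase gene Pigz were at least 2.01-fold and 1.97-fold. By the rule that picked them, these 5 genes were below the floor on both control arrays. Each was above it on both arrays of stimulated cells with dorsomorphin, and Pigz passed the filter through those arrays only. Outside those arrays, Slc45a2 and Klf14 were above the floor only on replicate 1 of dorsomorphin alone (5.58 and 5.49). Both genes therefore also needed the treated arrays to pass, and the rises of Pigz, Slc45a2 and Klf14 were admitted through the group where they are high.

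**Figure D2:**
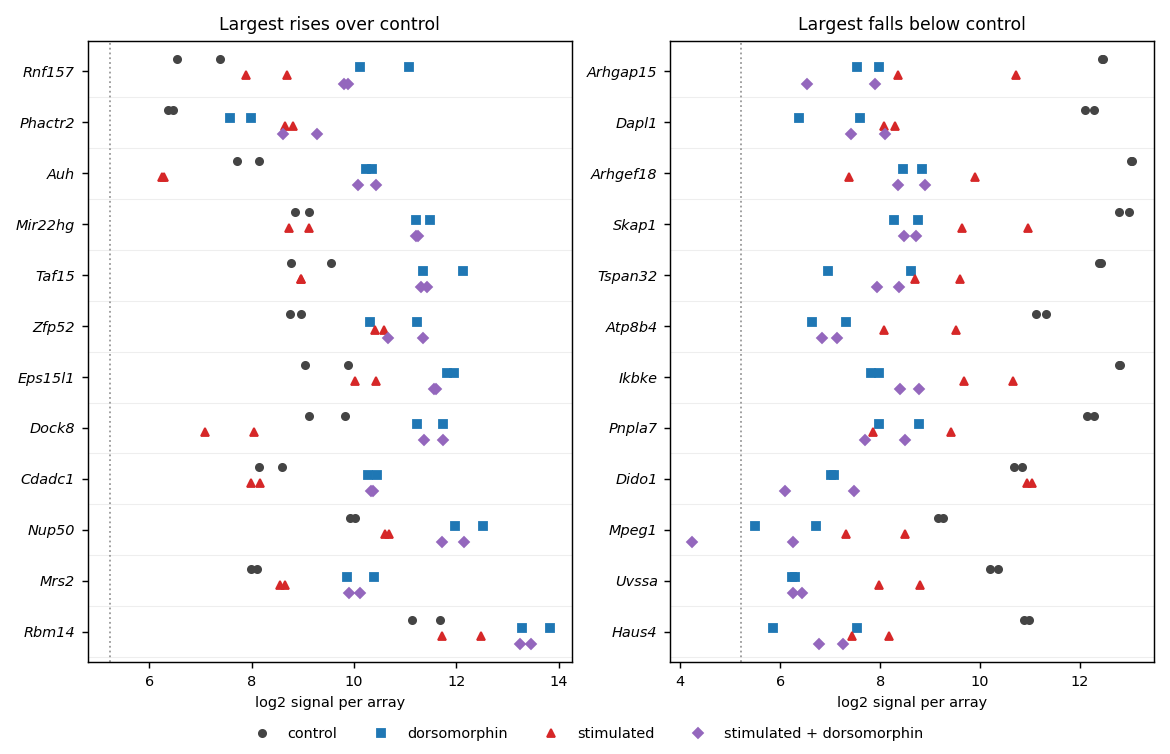
Log2 signal per array (x axis) of the 12 genes with the largest rises (left) and the 12 with the largest falls (right) between control cells and stimulated cells with dorsomorphin, with both means above the floor (dotted line, 5.22). Each marker is 1 array, 2 per group, with cells given dorsomorphin alone and stimulated cells as references, and for Arhgap15 the treated pair sits at 7.89 and 6.54 and the control pair at 12.45 and 12.44.

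Transcripts of some chains of the receptor that carries the stimulus were lower, and receptor protein was not measured here. Of 20 tested genes of the T cell receptor complex and its proximal signalling, 4 fell and 0 rose, beside 6.31% and 0.915% of all genes, and the list median was -0.71 beside -0.14 for all genes. Cd3g, the gamma chain of CD3, had log2 signals of 13.79 and 13.71 in control cells and of 10.75 and 10.70 in stimulated cells with dorsomorphin. It fell 8.16-fold (-3.03 ± 0.35, SE, n = 2 per group, limma adjusted p = 0.0190), and the arrays within each group nearly coincided. Cd3e, the epsilon chain, had 12.51 and 12.29 in control cells and 10.54 and 9.85 in the treated ones, a fall of 4.60-fold (-2.20 ± 0.46, limma adjusted p = 0.0478). Cd247, the zeta chain, had 13.04 and 13.15 in control cells and 11.002 and 11.85 in the treated ones (-1.67 ± 0.32, limma adjusted p = 0.0402), and its other 3 probe sets differed by -4.22 to -1.73. Thy1, a surface glycoprotein of T cells, fell by 1.68 ± 0.25 (12.21 and 12.35 against 10.46 and 10.73, limma adjusted p = 0.0251). In none of these 4 genes did the groups overlap. The stimulated arrays without inhibitor had Cd3g at 13.05 and 13.13, and the arrays with dorsomorphin alone had it at 10.75 and 9.74. In RNA from bulk cells, fewer cells of a type and less RNA of a gene per cell cannot be told apart.

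The drop was not uniform over the pathway. Ptprc, which encodes the phosphatase CD45, had 14.81 and 14.78 in control cells and 14.64 and 14.95 in stimulated cells with dorsomorphin, a difference whose 95% interval ran from -0.52 to 0.52. The kinase genes Fyn (-0.02 ± 0.58) and Zap70 (-0.55), the costimulatory receptor gene Cd28 (0.11) and the phospholipase gene Plcg1 (0.03) did not pass the test. Cd5, a negative regulator of receptor signalling, differed by -1.26 ± 0.29 and missed the threshold (limma adjusted p = 0.0580).

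Because 3 CD3 and zeta chain genes fell together, their promoters are printed, with that of Il2 as an inducible gene that did not pass the test. The windows run from 250 bases before to 50 bases after the transcription start in RefSeq's annotation of GRCm38.p6, each read 5' to 3' on the gene's strand. They are Cd3g at chr9:44980382-44980681 (minus strand), Cd3e at chr9:45009562-45009861 (minus strand), Cd247 at chr1:165788431-165788730 (plus strand) and Il2 at chr3:37125905-37126204 (minus strand). Capitals in the first 3 mark the E-box CAGGTG or its reverse complement CACCTG, the type of site bound by the E proteins that Id proteins hold in check. Capitals in Il2 mark GGAAA or its reverse complement TTTCC, the core that NFAT binds.
Cd3g: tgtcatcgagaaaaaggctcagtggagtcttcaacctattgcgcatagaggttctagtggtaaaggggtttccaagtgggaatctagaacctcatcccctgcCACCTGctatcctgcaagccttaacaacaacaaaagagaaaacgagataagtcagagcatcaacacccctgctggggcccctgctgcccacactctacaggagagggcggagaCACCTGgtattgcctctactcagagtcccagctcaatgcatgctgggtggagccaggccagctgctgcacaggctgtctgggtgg
Cd3e: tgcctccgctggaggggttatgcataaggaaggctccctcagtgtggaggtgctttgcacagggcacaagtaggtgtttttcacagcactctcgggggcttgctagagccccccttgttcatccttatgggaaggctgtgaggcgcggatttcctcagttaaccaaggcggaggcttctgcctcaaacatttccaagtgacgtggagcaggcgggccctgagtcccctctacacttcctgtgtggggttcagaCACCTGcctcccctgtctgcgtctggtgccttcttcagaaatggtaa
Cd247: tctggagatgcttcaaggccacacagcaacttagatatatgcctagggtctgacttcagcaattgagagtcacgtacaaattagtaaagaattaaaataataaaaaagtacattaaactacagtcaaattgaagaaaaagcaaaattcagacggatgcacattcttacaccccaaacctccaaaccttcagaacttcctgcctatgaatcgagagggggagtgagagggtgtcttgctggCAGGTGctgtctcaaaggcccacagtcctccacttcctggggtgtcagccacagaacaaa
Il2: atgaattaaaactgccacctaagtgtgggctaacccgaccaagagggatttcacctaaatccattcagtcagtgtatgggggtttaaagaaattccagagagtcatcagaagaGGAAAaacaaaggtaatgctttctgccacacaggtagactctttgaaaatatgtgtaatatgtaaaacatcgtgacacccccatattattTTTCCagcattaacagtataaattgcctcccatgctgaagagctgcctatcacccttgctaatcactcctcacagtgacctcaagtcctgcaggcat
The E-box was found 2 times in Cd3g, 1 time in Cd3e and 1 time in Cd247, and 20.2% of 32851 RefSeq mouse promoter windows of this length hold it on either strand. The Il2 window has 0 E-boxes. The GGAAA core was found 2 times in Il2, 2 times in Cd3e, 1 time in Cd3g and 0 times in Cd247, beside 61.3% of all windows with at least 1, and only those of Il2 are in capitals. Other patterns were counted too. GGGCGG was found 1 time in Cd3g and 0 times in the other printed windows, beside 35.7% of all windows with it. TGAGTCA and GGCGCC were found 0 times in each printed window, beside 5.20% and 11.9% of all windows. The promoter of Cd3d is not printed. The search used letters only, on both strands, and a match describes the window and not a bound site. Whether E proteins or Id proteins act on these genes here was not tested.

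Of the T cell cytokine genes, none passed the test against control, and several had wide intervals. Il2, the growth factor interleukin-2, had log2 signals of 4.93 and 6.34 in control cells, 4.23 and 6.55 in stimulated cells with dorsomorphin, and 12.65 and 14.18 in stimulated cells without it. Its difference from control was -0.24 ± 1.05 (SE, 95% interval -2.83 to 2.34, limma adjusted p = 0.911), and the 2 groups overlapped. Ifng, which encodes interferon gamma, had 6.15 and 5.97 in control cells and 5.37 and 6.24 in stimulated cells with dorsomorphin (-0.25, interval -1.53 to 1.02). Tnf, the inflammatory cytokine gene, lay higher with no overlap, at 6.98 and 8.12 against 6.56 and 6.58, and did not pass (0.98 ± 0.60, limma adjusted p = 0.352). Of 18 tested T cell cytokines, 0 passed the limma test in either direction, beside 0.915% higher and 6.31% lower over all genes, and 16 had differences within 1 log2 unit, beside 71.7% of all genes. At an unadjusted p under 0.05 the count was also 0, beside 26.4% of all genes. None of the 18 had its whole 95% interval within that range. The list's median group mean was 5.64 in control cells and 5.49 in stimulated cells with dorsomorphin, both near the floor. It was 9.75 in stimulated cells without the inhibitor. Small differences near the floor may reflect background. These counts therefore cannot show that cytokine transcripts stayed at the resting level. Against stimulated cells without the inhibitor, 14 of the 18 were lower, beside 12.4% of all tested genes.

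Transcription factors and surface molecules of activation are read beside 0.915% higher and 6.31% lower over all genes. Of 26 activation-induced transcription factors 0 rose and 2 fell, with a median of 0.28, and of 23 activation and costimulatory surface molecules 0 rose and 1 fell, with a median of 0.10. At an unadjusted p under 0.05 the counts were 5 and 6, beside 26.4% of all genes. Egr2, a receptor-induced factor, had 7.21 and 6.68 in control cells and 7.41 and 7.97 in stimulated cells with dorsomorphin (0.75 ± 0.30, limma adjusted p = 0.188), against 13.16 and 13.13 in stimulated cells. Egr3, its relative, had 6.64 and 5.09 in control cells and 7.43 and 8.29 in stimulated cells with dorsomorphin (1.998 ± 0.64, limma adjusted p = 0.117). Both EGR genes lay higher than control on both arrays, without passing the test. Cd69, the early activation antigen, had 10.54 and 9.69 in control cells, 11.30 and 11.78 in stimulated cells with dorsomorphin, and 10.99 and 12.11 with dorsomorphin alone. Its difference from control was 1.43 ± 0.48 (limma adjusted p = 0.128).

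A few members of the activation lists passed the test as lower than the resting level, and not all of them rose with stimulation alone. Stimulated cells without the inhibitor differed from control by 3.51 log2 units for Myc and 3.66 for Tnfsf14. They differed by 0.14 for Rcan1, -0.72 for the brightest probe set of Nfatc2 and -1.11 for Ccl9. Myc, the growth regulator, had 10.12 and 9.89 in control cells, 8.53 and 8.73 in stimulated cells with dorsomorphin, and 13.48 and 13.55 in stimulated cells without it. It fell 2.60-fold from the resting level (-1.38 ± 0.21, SE, n = 2 per group, limma adjusted p = 0.0273). Rcan1, a calcineurin inhibitor whose gene answers calcineurin and NFAT, had 9.06 and 8.996 in control cells and 5.88 and 6.33 in stimulated cells with dorsomorphin, 7.57-fold lower (-2.92 ± 0.26, limma adjusted p = 0.0186). For both genes the treated arrays lay well below the control arrays, and their levels with dorsomorphin alone were 8.35 and 8.42 for Myc and 5.99 and 5.79 for Rcan1. Nfatc2, which encodes the factor NFAT1, fell by 2.47 on its brightest probe set (9.75 and 9.97 against 7.10 and 7.68, limma adjusted p = 0.0190). Its other 5 probe sets differed the other way, by 0.46 to 1.46, and the mean of all of them gave 0.47. Tnfsf14, a costimulatory ligand gene also called LIGHT, went from 5.55 and 5.68 to below the floor, at least 1.31-fold lower, and its other probe set differed by 0.05. Ccl9, a chemokine gene, fell by 2.72 (8.23 and 9.24 against 6.30 and 5.72). It was the 1 of 12 chemokines that passed, beside 7.22% of all genes. Of 10 chemokine receptors 0 passed limma and 3 had an unadjusted p under 0.05, beside 7.22% and 26.4% of all genes. Their median was -0.43. Of 24 feedback inhibitors of receptor signalling, only Rcan1 passed the test, beside 7.22% of all genes. Tnfaip3, the NF-kB inhibitor A20, missed the threshold at 1.34 ± 0.36 (limma adjusted p = 0.0810).

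**Figure D3:**
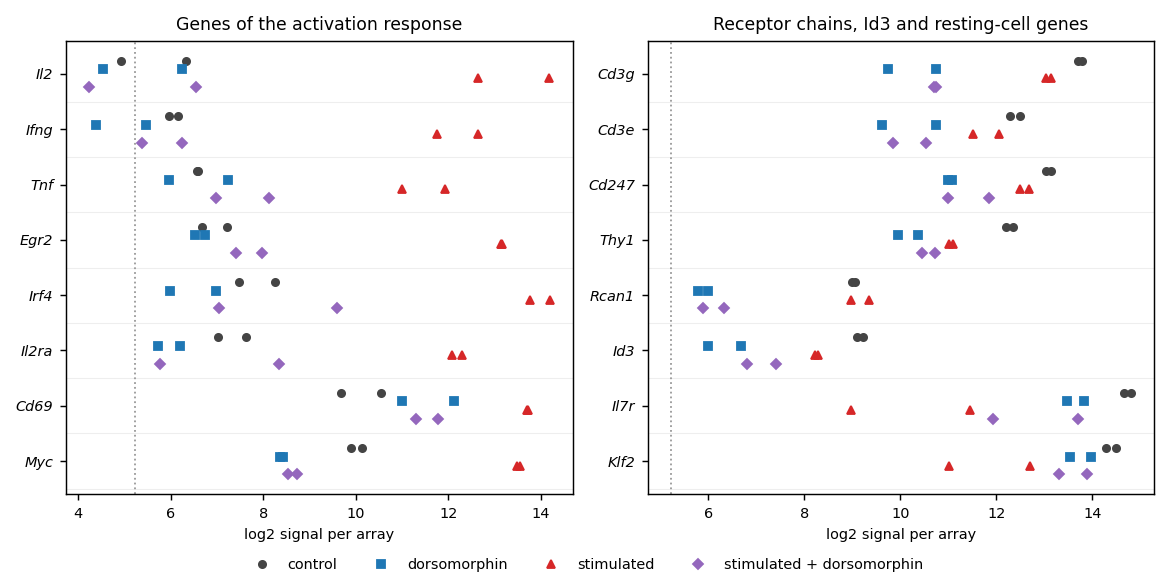
Log2 signal per array (x axis) of 8 activation genes (left) and of receptor chain, Id3 and resting-cell genes (right), with 2 arrays in each of the 4 groups and the floor of 5.22 as a dotted line. Il2 in stimulated cells with dorsomorphin (4.23 and 6.55) overlaps the control arrays (4.93 and 6.34), while Cd3g sits at 10.75 and 10.70 against 13.79 and 13.71 in control cells.

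Of 22 quiescence and homing genes, 0 rose and 1 fell, beside 0.915% and 6.31% of all genes, with a median of -0.38, and 19 lay within 1 log2 unit of control, beside 71.7% of all genes. Klf3, a transcriptional repressor of naive lymphocytes, was the 1 that fell (14.10 and 13.90 against 12.27 and 11.36, -2.19 ± 0.43, limma adjusted p = 0.0422), and 4 of its other 6 probe sets went the same way. Klf2, which maintains the homing program, had 14.50 and 14.29 in control cells, 13.88 and 13.32 in stimulated cells with dorsomorphin, and 12.71 and 11.02 in stimulated cells without it. Its difference from control was -0.79 ± 0.57 (limma adjusted p = 0.427). Il7r, the receptor for the survival factor interleukin-7, had 14.67 and 14.82 in control cells and 13.71 and 11.93 in stimulated cells with dorsomorphin (-1.92 ± 0.92, limma adjusted p = 0.248). The treated Il7r arrays lay below the control arrays and far apart from each other.

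Of 19 G1 cyclins, kinases and inhibitors, 2 fell and 0 rose, beside 6.31% and 0.915% of all genes. With no overlap, 3 of the 19 lay higher and 8 lower than control, beside 23.2% and 37.9% of all genes. Regardless of overlap, 6 lay higher and 13 lower. E2f2, an E2F factor, fell by 1.57 (9.88 and 9.58 against 8.47 and 7.84, limma adjusted p = 0.0373), and Rbl2, the retinoblastoma relative p130 that restrains E2F genes, fell by 1.29 (11.74 and 11.98 against 10.59 and 10.55, limma adjusted p = 0.0466). Ccnd2, cyclin D2, had 12.29 and 12.96 in control cells and 10.26 and 11.54 in stimulated cells with dorsomorphin, against 14.87 and 14.86 in stimulated cells (-1.73 ± 0.47 from control, limma adjusted p = 0.0811). Cdkn1b, the kinase inhibitor p27, had 13.04 and 12.92 in control cells and 13.32 and 12.26 in stimulated cells with dorsomorphin. Its groups overlapped (-0.19 ± 0.74, limma adjusted p = 0.901).

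Of 32 ribosome biogenesis genes 0 rose and 1 fell, beside 0.915% and 6.31% of all genes. Their median was 0.35 beside -0.14, and 16 of the 32 lay higher than control with no overlap, beside 23.2% of all genes, while 31 of the 32 were lower than in stimulated cells without the inhibitor, beside 12.4% of all genes. Polr1a, the largest subunit of RNA polymerase I, was the 1 that fell (9.64 and 9.12 against 7.71 and 7.68, -1.69 ± 0.27, limma adjusted p = 0.0278). Its other 2 probe sets differed by -1.34 and 0.28. Polr1b, the second largest subunit, had 7.46 and 8.09 in control cells and 7.50 and 7.48 in the treated ones, against 11.15 and 11.30 in stimulated cells (-0.28, interval -0.96 to 0.39). Slc7a5, the amino acid transporter of activated T cells, had 8.65 and 8.82 in control cells and 8.77 and 9.85 in the treated ones, against 12.87 and 12.35 in stimulated cells (0.58 ± 0.41).

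Among metabolic lists, 0 of 12 nucleotide and polyamine synthesis genes (median 0.17), 0 of 24 cholesterol and fatty acid synthesis genes (0.28) and 0 of 23 ATF4 and amino acid response genes (0.25) passed the limma test, beside 7.22% of all genes in either direction. At an unadjusted p under 0.05 the counts were 4, 6 and 7, beside 26.4% of all genes. Of 16 glycolysis genes 1 fell, Slc2a3, a glucose transporter of lymphocytes (11.62 and 11.53 against 10.02 and 9.26, -1.93 ± 0.32, limma adjusted p = 0.0300). All 11 tested cytosolic ribosomal protein genes had 95% intervals within 1 log2 unit of the control level, beside 18.8% of all genes, with differences from -0.21 to 0.08.

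The list of BMP, activin and TGF-beta ligands, receptors and SMADs holds type I BMP receptors, which dorsomorphin blocks, beside ligands, SMADs and other receptors. Of its 24 members, Bmp2, Bmp4, Bmp6 and the receptor genes Bmpr1b and Acvrl1 were not bright enough to be tested. Of its 19 tested members 0 passed the limma test, beside 7.22% of all genes. An unadjusted p under 0.05 was found for 4, beside 26.4% of all genes, and the list median was -0.01. Bmpr1a, a BMP type I receptor, had log2 signals of 7.27 and 6.94 in control cells and 7.04 and 7.03 in stimulated cells with dorsomorphin, and the groups overlapped. Acvr1, another type I receptor for BMPs, had 6.58 and 6.57 against 7.46 and 7.15 (0.73 ± 0.21, limma adjusted p = 0.0974). It lay higher on both treated arrays without passing the test.

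Downstream, Id3 alone of 9 tested BMP-SMAD target genes passed, as a fall, beside 6.31% of all genes that fell. Id3, an inhibitor of E proteins, had 9.22 and 9.10 in control cells and 7.40 and 6.80 in stimulated cells with dorsomorphin, 4.16-fold lower (-2.06 ± 0.33, SE, n = 2 per group, limma adjusted p = 0.0285). Its levels were 5.99 and 6.69 with dorsomorphin alone and 8.22 and 8.29 in stimulated cells without it. Id1, its relative, had 6.90 and 6.12 in control cells and 4.95 and 5.82 in the treated ones, lower without overlap but not past the test (-1.12 ± 0.51, limma adjusted p = 0.231). Id2, the third family member here, differed by -0.47 ± 0.33 (12.90 and 12.46 against 12.19 and 12.22, limma adjusted p = 0.409). Smad7, the inhibitory SMAD, had 12.20 and 11.99 in control cells and 12.23 and 11.05 in the treated ones, so that the groups overlapped (-0.46 ± 0.44). Bambi, a decoy receptor for BMP signals, lay higher at 7.65 and 7.69 against 6.52 and 6.73 and missed the threshold (1.04 ± 0.26, limma adjusted p = 0.0665). Smad6, Atoh8, Msx2 and Nog were not bright enough to be tested.

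Of 10 tested genes of AMPK and its upstream kinases, the other target family, 1 passed, beside 7.22% of all genes. At an unadjusted limma p under 0.05 the count was 6 of 10, beside 26.4% of all genes. With no overlap, 6 lay higher and 4 lower than control, beside 23.2% and 37.9% of all genes. Prkag2, a regulatory gamma subunit, had 9.48 and 9.55 in control cells and 7.25 and 7.19 in stimulated cells with dorsomorphin, 4.92-fold lower (-2.30 ± 0.35, limma adjusted p = 0.0264). Of its other 3 probe sets, 2 went the same way, over a range from -2.49 to 1.11. Prkaa1, the catalytic subunit, had 9.55 on both control arrays and 9.09 and 8.33 on the treated ones (-0.84 ± 0.33, limma adjusted p = 0.174). Stk11, the upstream kinase LKB1, lay higher at 11.65 and 11.44 against 10.70 and 10.53 (0.93 ± 0.21, limma adjusted p = 0.0556). In fatty acid oxidation, a process that AMPK promotes, the list median was -0.56. Of its 15 genes 7 had an unadjusted limma p under 0.05, beside 26.4% of all genes. With no overlap, 9 lay lower and 2 higher, beside 37.9% and 23.2% of all genes. By the adjusted test 1 of the 15 fell and 0 rose, beside 6.31% and 0.915% of all genes. Cpt1a, the enzyme that controls fatty acid entry into mitochondria, was that gene (9.83 and 10.03 against 7.91 and 8.19, -1.88 ± 0.38, limma adjusted p = 0.0443), and its other 2 probe sets differed by -2.53 and -2.08.

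The Gimap and regulatory T cell lists had medians below that of all genes (-0.14). All 8 Gimap genes, immune GTPases that sustain lymphocytes, were below control with no overlap between the arrays, beside 37.9% of all genes. By the test 4 of 8 fell, beside 6.31% of all genes, with a median of -1.28. Gimap8 had 13.84 and 14.06 in control cells and 10.69 and 10.92 in stimulated cells with dorsomorphin, 8.84-fold lower (-3.14 ± 0.33, SE, n = 2 per group, limma adjusted p = 0.0186). Gimap5 (-1.67), Gimap9 (-1.32) and Gimap7 (-1.24) were the others that passed. Probe sets of related genes can share signal, and how far those of this family do so was not tested.

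Of 12 regulatory T cell markers 3 fell and 0 rose, beside 6.31% and 0.915% of all genes, with a median of -1.01. They were Itgae, the integrin CD103 (10.09 and 10.003 against 7.68 and 6.98, -2.72 ± 0.32, limma adjusted p = 0.0190), the actin-capping gene Capg (-1.74) and the coreceptor gene Nrp1 (-1.60). The other probe sets of all 3 went the same way. Foxp3, which defines regulatory T cells, had 9.14 and 8.82 in control cells and 7.88 and 8.36 in the treated ones, lower without overlap and not past the test (-0.86 ± 0.43, limma adjusted p = 0.263). Of 15 lineage transcription factors 1 passed, beside 7.22% of all genes. It was Stat6, the interleukin-4 signal factor (12.02 and 12.03 against 10.78 and 10.67, -1.30 ± 0.25, limma adjusted p = 0.0393). The list median was -0.72.

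Stress and death lists were read against the 7.22% of all genes that passed in either direction. Of 19 endoplasmic reticulum genes, Edem1, which sends misfolded proteins to degradation, rose by 1.54 (11.05 and 10.91 against 12.49 and 12.56, limma adjusted p = 0.0212), and Sel1l, a subunit of the same pathway's ubiquitin ligase, fell by 1.58 (10.97 and 11.05 against 9.62 and 9.23, limma adjusted p = 0.0254). Other probe sets of both disagreed: that of Edem1 differed by -0.18, and 3 of the 4 of Sel1l lay higher, with a mean over all its probe sets of 0.45. Among 19 autophagy and lysosome genes, Atg12, a ubiquitin-like conjugation protein, rose by 1.10, and Atg7, the enzyme that activates it, fell by 1.18. For both autophagy genes the other probe sets went the same way. Bid, a death-promoting BCL2 family member, fell by 1.20 (8.16 and 8.09 against 6.71 and 7.13, limma adjusted p = 0.0421) and was the 1 of 11 family members that passed. No p53 target of 11 and no heat shock or oxidative stress gene of 14 passed limma, with medians of 0.43 and -0.19. At an unadjusted p under 0.05 the counts were 2 and 0, beside 26.4% of all genes. Of 19 interferon-stimulated genes, only Ifi204, a DNA-sensing family gene, passed, from 7.37 and 8.04 to below the floor, at least 5.59-fold lower.

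**Figure D4:**
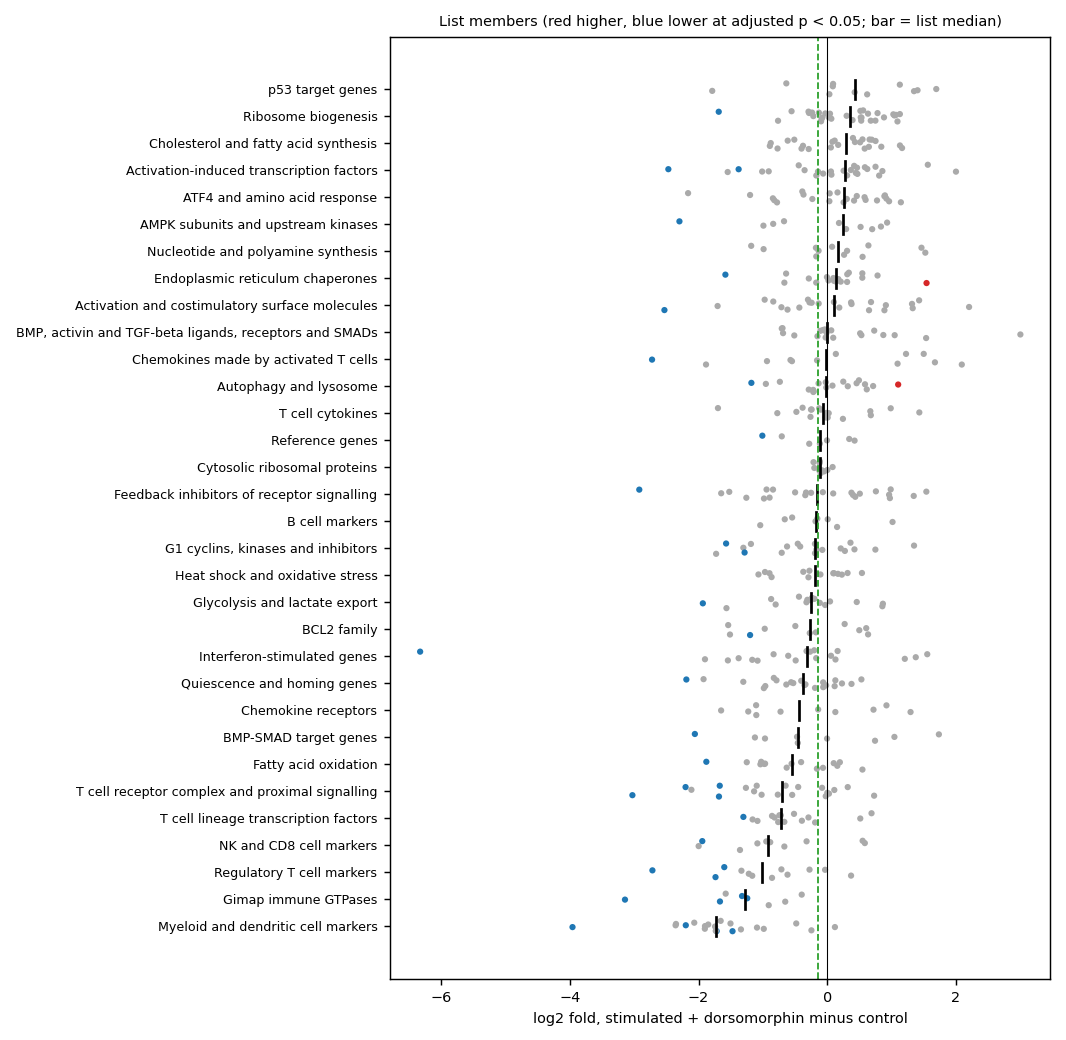
Log2 fold of stimulated cells with dorsomorphin minus control (x axis) for the tested members of each gene list (1 point per gene, red higher and blue lower at an adjusted p under 0.05, grey not past it), with the list median as a black bar and the median of all genes (-0.14) as a dashed line. Lists of myeloid markers (-1.73) and Gimap genes (-1.28) have the lowest medians, and the cytokine median is -0.06.

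Of the markers of other cell types, the myeloid list had the lowest median. Of 20 myeloid and dendritic cell markers 19 lay below control, 17 with no overlap, beside 37.9% of all genes. By the test 4 fell, beside 6.31% of all genes, and the median was -1.73 beside -0.14. These were Mpeg1 (-3.96), the oxidase subunit gene Cybb (-2.20), the macrophage antigen gene Adgre1 (-1.72) and the lysozyme gene Lyz2 (-1.47). Lyz2 had 10.06 and 10.74 in control cells and 8.91 and 8.95 in stimulated cells with dorsomorphin. The summed signal of the list was log2 14.06 and 14.65 on the control arrays, 12.57 and 12.74 on the stimulated arrays with dorsomorphin, 12.47 and 12.45 with dorsomorphin alone, and 13.44 and 12.81 in stimulated cells. The part of these cells in the lower calls was not tested.

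Of 10 natural killer and CD8 cell markers 1 fell, beside 6.31% of all genes. It was the granule gene Nkg7 (6.98 and 6.99 against 4.60 and 5.48, -1.94 ± 0.38, limma adjusted p = 0.0412). The summed signal of the list was log2 11.54 and 11.23 in control cells and 10.36 and 10.17 in the treated ones. Of 8 tested B cell markers 0 passed limma and 1 had an unadjusted p under 0.05, beside 7.22% and 26.4% of all genes. Their sums were 12.73 and 13.61 in control cells and 12.24 and 13.08 in the treated ones, which overlapped. Ebf1 was below the floor on all 8 arrays. Of 7 reference genes often used for scaling, 1 fell, beside 6.31% of all genes. It was the succinate dehydrogenase gene Sdha (-1.01 ± 0.21, limma adjusted p = 0.0473), with -0.28 ± 0.20 for Actb and 0.00 for B2m. The mean of all Sdha probe sets gave 0.11.

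Cells with dorsomorphin alone gave the nearest reference. Between stimulated cells with dorsomorphin and cells with dorsomorphin alone, limma called 0 of 13983 genes (0.0%), with 539 (3.85%) at an unadjusted p under 0.05 and a lowest adjusted p of 0.0897. The median difference was 0.06, and 88.8% of genes differed by less than 1 log2 unit. Each other setting also gave 0 calls, except the filter at the 60th percentile, which gave 2. Array 1 of the stimulated cells with dorsomorphin correlated at 0.955 with array 1 of dorsomorphin alone and array 2 at 0.941 with array 2. Across numbers these correlations were 0.941 and 0.935, and the pair itself correlated at 0.937. These comparisons share the stimulated arrays with dorsomorphin, so values are given side by side and not as a test of likeness.

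For several leading genes the levels with dorsomorphin alone were as follows. Arhgap15 had 7.97 and 7.53, Skap1 8.76 and 8.28, Ikbke 7.97 and 7.82 and Gimap8 10.70 and 10.43. Mir22hg had 11.21 and 11.49 and Taf15 11.34 and 12.14. In these 6 genes the arrays with dorsomorphin alone lay apart from the control arrays in the same direction as the stimulated arrays with dorsomorphin. Stimulated cells without the inhibitor also differed from control, by -2.91 for Arhgap15, -2.57 for Skap1, -2.62 for Ikbke and -1.50 for Gimap8. Their differences were -0.05 for Mir22hg and -0.20 for Taf15. Other leading genes varied: stimulation alone gave -4.40 for Arhgef18, 2.31 for Phactr2 and -1.66 for Auh, and dorsomorphin alone gave -4.39, 1.36 and 2.37. Against stimulated cells without the inhibitor, limma called 1358 genes higher (9.71%) and 1738 lower (12.4%), 3096 in all. That total was 2648 without replicate 1 and 1140 without replicate 2 of the stimulated cells, 1000 and 1760 without replicate 1 and 2 of the stimulated cells with dorsomorphin, and 0 when only those 4 arrays were fitted.

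The pair of stimulated arrays with dorsomorphin differed from each other over several activation lists. Relative to the control mean, the list medians on replicate 1 and replicate 2 were -0.07 and 0.35 for activation surface molecules, -0.16 and 0.71 for chemokines, 0.06 and 0.46 for ribosome biogenesis and -0.20 and 0.44 for nucleotide and polyamine synthesis. Replicate 2 was the higher one for 18 of 23 surface molecules, 27 of 32 ribosome biogenesis genes and 11 of 12 nucleotide and polyamine genes, beside 6123 of all 13983 genes. It was the higher one for 5 of 22 quiescence genes. Irf4, a factor graded with receptor signal strength, had 7.05 on replicate 1 and 9.60 on replicate 2, against 8.24 and 7.48 in control cells. Il2ra, the high-affinity interleukin-2 receptor chain, had 5.77 and 8.33, against 7.63 and 7.03 in control cells. Cd274, the inhibitory ligand PD-L1, had 8.96 and 12.58, against 8.62 and 8.53 in control cells. In all 3 genes replicate 2 lay above both control arrays, and for Irf4 and Il2ra replicate 1 lay below both. The fitted differences from control were 0.46 ± 0.86 for Irf4, -0.28 ± 0.80 for Il2ra and 2.20 ± 1.11 for Cd274, and none passed limma (adjusted p = 0.776, 0.862 and 0.270). Leaving out replicate 2 turned Irf4 to -0.81, and leaving out replicate 1 turned Il2ra to 1.00. With 1 array on each side, whether this spread belongs to the cells or the arrays was not tested.

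**Figure D5:**
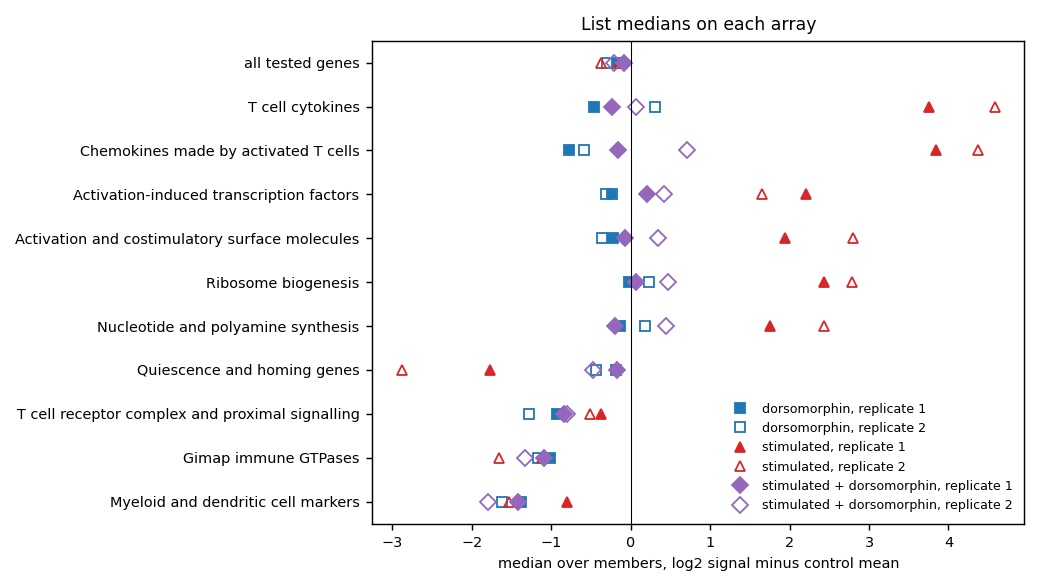
Median over list members of log2 signal minus the control mean (x axis) on each array of 3 groups, filled markers for replicate 1 and open ones for replicate 2. Cytokine medians are at -0.23 and 0.07 in stimulated cells with dorsomorphin and at 3.76 and 4.58 in stimulated cells, while the T cell receptor list stands at -0.84 and -0.80 in stimulated cells with dorsomorphin and at -0.93 and -1.28 with dorsomorphin alone.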

How the data were processed

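RNA of 8 arrays in 4 groups of 2 was analysed. The authors deposited linear intensity values, 1 for each of 45101 probe sets and array. RMA and affy are named per the submitters' processing notes, and their versions are not stated there. RMA output is usually on a log2 scale, and these values are not (lowest value 0.0605, mean after trimming 2% at each end 500 on every array), so the step that made them is not known. Log2 was taken with no pseudocount and no further normalization. Probe sets were named through the platform annotation: 34945 had 1 symbol, 932 several, 9160 none and 64 were controls, and 34741 matched RefSeq by Entrez ID.

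All 8 arrays entered 1 limma 3.58.1 fit in R 4.3.3 (group means, lmFit, contrasts.fit, eBayes, 4 residual and 1.90 prior degrees of freedom), two-sided, with Benjamini-Hochberg adjustment over the 13983 tested genes. The step was tested on simulated data. Named genes were the 12 largest rises and 12 largest falls among called genes with non-overlapping arrays and both means above the floor, the 5 largest bounds each way, up to 4 called members per list, and 24 preset genes, called or not, of which 1 is not reported here. Symbols that name clones were left out of the first parts. A bound sets the bright group's mean against the dim group's, each dim value raised to the floor where it lay below. Intervals are limma's 95% ones.

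The comparison, the 32 gene lists and the named genes were chosen with earlier results of these data known. Alternatives were 3 scalings, 2 filters, a pseudocount of 16, the mean of all probe sets, a fit of the compared arrays, another variance model, the replicate number as a block, and each replicate left out. No scan date or slide was used here.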

Additional observations from a re-analysis of the deposited data

How the results depend on the processing

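The number of calls between stimulated cells with dorsomorphin and control cells moved with most settings. The count of higher genes (128) was 75 with median centring, 228 with quantile normalization, 28 with no filter, 335 with the 60th percentile filter, 221 with a pseudocount of 16, 65 with the mean of all probe sets, 464 with a trended and robust variance and 0 with only the 4 arrays. The count of lower genes (882) was 569 with median centring, 236 with no filter, 1740 with the 60th percentile filter, 1442 with the pseudocount, 440 with the mean of all probe sets, 1719 with the trended and robust variance and 0 with only the 4 arrays. Leaving out 1 replicate gave 0 to 0 for both. Cyclic loess gave 134 and 814. The replicate block gave 175 higher and 1106 lower genes, 914 of the calls shared, but same-numbered arrays deviated together only weakly (correlations 0.07 to 0.18 over the 6 pairs of groups), and the numbers are not known to mark a pairing. With the mean of all probe sets, 925 of 979 called genes with a value kept their direction. Over the 32 lists and 14 settings, 434 of 448 medians moved by less than the members' median standard error, while 203 of 448 counts of lower members moved by over 1.5 times. Median centring moved the median of all genes from -0.14 to -0.04. Against dorsomorphin alone, the 60th percentile filter gave 2 calls in place of 0, and every replicate left out gave 0. Against stimulated cells, only the 4 arrays gave 0 in place of 3096, and leaving out 1 replicate gave 1000 to 2648. With the mean of all probe sets the difference from control turned to -0.17 for Dock8, 0.47 for Nfatc2, 0.45 for Sel1l, 0.11 for Sdha, 0.010 for Smad7 and 0.67 for Il2ra. Without 1 replicate the difference changed sign for 7 genes that had not passed the test. It ran from -1.05 to 0.13 for Smad7, from -1.40 to 0.92 for Il2, from -0.69 to 0.18 for Ifng, from -0.81 to 1.74 for Irf4, from -1.56 to 1.00 for Il2ra, from -0.72 to 0.34 for Cdkn1b and from -0.60 to 0.033 for Polr1b. The cause was not tested. Signals near the floor limit the bounds, and the background of each array is unknown.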
